A study of Homo sapiens with 34 samples.

Results

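The T-box genes encode transcription factors that share a DNA-binding domain, the T-box, and 10 of them were followed here through the cardiac differentiation of human embryonic stem cells (ESCs). The members were taken by name: TBXT, EOMES, TBX6, TBX1, TBX2, TBX3, TBX4, TBX5, TBX18 and TBX20. Each was read from the RefSeq transcript row with its largest total count, so the 10 members are 10 of 23189 genes and 10 of 17 T-box genes with a row in the deposited table. The remaining 7 T-box genes (TBR1, TBX10, TBX15, TBX19, TBX21, TBX22 and MGA) are given only as a background to them.

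T-box factors mark successive steps of mesoderm and heart formation. TBXT (brachyury) and EOMES (eomesodermin) are switched on in the primitive streak, where EOMES also acts in the making of definitive endoderm, and TBX6 follows in paraxial mesoderm. TBX1 acts in pharyngeal mesoderm and the second heart field. TBX5 and TBX20 are core cardiac activators, and TBX2 and TBX3 are repressors that keep the chamber programme out of the atrioventricular canal and the pacemaker tissue. TBX18 marks the epicardium and the sinus horn, and TBX4 is best known from the hindlimb and the lung mesenchyme.

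The cells were H1, an established human ESC line, driven towards cardiomyocytes by the GSK3 inhibitor CHIR for 24 hours, by the WNT inhibitor IWP2 from day 2 to day 5 and by insulin-containing medium from day 7. The WT cells were controls with an empty vector or an shRNA to GFP, and each knockdown line held an shRNA to its target: NKX2-5, ZEB2 or ZNF503. RNA was sequenced at days 0, 2, 6 and 10. The libraries used were 30 in 15 groups of 2, described by the submitters as biological replicates, with WT and each of the 3 shRNA lines at days 0, 2 and 6 and WT, NKX2-5 shRNA and ZEB2 shRNA cells at day 10. At day 10 the WT and ZEB2 shRNA libraries were replicates 3 and 4 and the NKX2-5 shRNA libraries replicates 1 and 2, and what a replicate number marks is not given in the sources used here. The ZNF503 line was not analysed here at day 10. All are mixed cultures with no sort for a cell type, so fewer cells of a type and less RNA per cell cannot be told apart in any value that follows.

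Library totals ran from 9189943 to 90814577 counts and were lowest at day 10, at 9189943 to 29549874. Levels are given as CPM, the count of a gene relative to the library total, after scaling by the trimmed mean of M-values (TMM), and intervals or limits drawn from counts cover counting error only. The targeted genes were checked first. NKX2-5 stood at 0.995 and 0.761 CPM in the 2 NKX2-5 shRNA libraries of day 6 and at 84.3 and 50.3 CPM in WT, which leaves 1.3% of the WT mean. ZNF503 at day 6 was left at 7% of WT and ZEB2 at 58.6% of WT, so the ZEB2 line kept more than a trace of its target's mRNA. The paper, with another assay (real-time PCR), reports a stronger reduction of ZEB2 mRNA than this. At day 2 the knockdown was less clear. ZNF503 and NKX2-5 were low in WT at that day, NKX2-5 at 0.194 and 0.247 CPM. ZNF503 was at 0.991 and 1.76 CPM in its line and at 1.1 and 1.98 CPM in WT (89.6% of WT, adjusted p = 0.714 in edgeR's quasi-likelihood test). ZEB2 was not as low, at 18.2 and 17.7 CPM in WT, and stood at 65.8% of WT in its line (adjusted p = 0.185 in the same test). At day 10 NKX2-5 was left at 1.37% of WT and ZEB2 at 49.2% (adjusted p = 0.0793). The sum of 3 pluripotency markers in WT was 1186 and 1200 CPM at day 0 and 2.33 and 2.4 CPM at day 10, and the sum of 6 cardiomyocyte markers in WT was 11027 and 8723 CPM at day 6 and 16603 and 13660 CPM at day 10. No cardiomyocyte marker was at 0 in any group of days 6 or 10.

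On GRCh37, the build of the count table, the members lie on 7 chromosomes, with a pair of neighbours on each of 2 of them. TBX3 (chr12:115108060-115121980) and TBX5 (chr12:114791716-114846247) both lie on the minus strand of chromosome 12, 261.8 kb apart. TBX2 (chr17:59477204-59486827) and TBX4 (chr17:59529765-59562471) both lie on the plus strand of chromosome 17, 42.9 kb apart. TBXT (chr6:166571144-166582188) and TBX18 (chr6:85397069-85474316) are on chromosome 6, EOMES is at chr3:27757440-27764202, TBX20 at chr7:35242042-35293711 and TBX6 at chr16:30097114-30103245, all on the minus strand. TBX1 lies on the plus strand at chr22:19744226-19771116.

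Promoter sequence was matched for 8 of the 10 members in 10 windows of 300 bases, 250 before and 50 after a RefSeq transcript start, and each window was found by exact match in GRCh37. TBX2 and TBX3 had no entry. The windows were read on both strands for CAGGTG, the E-box bound by ZEB factors, which overlaps the T-box core where a T follows it, for TNAAGTG, the NKX2-5 element, and for AGGTGT, the T-box core. CAGGTG was found in 2 of the 10 windows, those of EOMES and TBX1, and it occurs in 20.6% of all 35116 RefSeq windows of that length. Both sites are shown because EOMES and TBX1 were among the members above WT in ZEB2 shRNA cells at day 6. TBX1 was above WT in the ZNF503 line as well, and a link between the sites and these values was not tested. The E-box is in capitals, 5' to 3' on the gene's strand. The EOMES stretch is chr3:27763906-27763935 on the minus strand, in a window that GENCODE places in EOMES exon, 279 bases in UTR and 21 in coding sequence. The TBX1 stretch is chr22:19744246-19744275 on the plus strand. Its window has 50 bases in the TBX1 gene, of which 43 are in the UTR of the exon that opens the gene. The TBX1 E-box begins 40 bases after the start, so it runs across the end of that exon and overlaps the splice site there.
EOMES: cccgcgagtcggCAGGTGggtagccccggc
TBX1: gaagggaaccgcggccgggcCAGGTGaggg

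The NKX2-5 element was found in 1 window, the second of TBXT (chr6:166581290-166581589), at 91 bases before and 31 bases after that transcript's start, and it occurs in 10.2% of all windows. AGGTGT was found in no member's window and occurs in 11.4% of all. The 250 bases before the start of TBX5 and TBX20 are shown because these cardiac activators were among the members lowest against WT at day 6 in NKX2-5 and ZNF503 shRNA cells, and neither holds any of the 3 motifs. They also differ in composition, at 51.2% G and C for TBX5 and 74% for TBX20, with a median of 58.7% over the RefSeq windows. The TBX5 stretch is chr12:114846248-114846497 on the minus strand, and all of it lies in an exon of the antisense gene TBX5-AS1. The TBX20 stretch is chr7:35293712-35293961 on the minus strand.
TBX5: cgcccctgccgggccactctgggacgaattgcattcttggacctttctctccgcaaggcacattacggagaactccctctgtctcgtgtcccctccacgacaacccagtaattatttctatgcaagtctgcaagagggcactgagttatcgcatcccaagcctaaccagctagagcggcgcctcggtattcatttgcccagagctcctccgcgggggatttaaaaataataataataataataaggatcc
TBX20: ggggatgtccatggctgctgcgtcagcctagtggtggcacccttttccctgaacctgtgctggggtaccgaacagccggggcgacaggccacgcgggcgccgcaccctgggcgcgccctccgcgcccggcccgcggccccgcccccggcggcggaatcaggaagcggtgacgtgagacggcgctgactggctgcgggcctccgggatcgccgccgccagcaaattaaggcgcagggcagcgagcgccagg

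In WT cells TBXT, EOMES and TBX6 peaked at day 2, TBX2 and TBX5 rose after day 2, and TBX18 rose by day 10. TBX3 and TBX20 were already rising by day 2, and TBX1 was highest at day 0. A difference was called at an adjusted p under 0.05 (5% FDR) in edgeR's quasi-likelihood test, and the log2 fold changes are given with their standard error (SE). From day 0 to day 2, 6 of the 10 members changed, 5 of them upward, where 44.1% of all genes tested changed and 20.9% rose. From day 2 to day 6, 9 of 10 changed, 5 upward (49.8% of all genes, 25.9% upward), and from day 6 to day 10, 7 of 10 changed, 4 upward (57.5% of all genes, 28.2% upward). The median member moved by 2.26, 1.86 and 0.46 on the log2 scale over these steps, and the median gene by -0.01, 0 and -0.01.

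TBXT was at 0.371 and 0.286 CPM in WT at day 0, at 51.5 and 53.4 CPM at day 2 and at 0.304 and 0.432 CPM at day 6. The day 2 libraries stood far above the others, and the gene rose by 7.33 ± 0.25 (log2, SE) and then fell by 7.09 ± 0.25. It had no count in either WT library of day 10, which puts day 6 at least 1.52-fold higher. EOMES, from 2.31 and 2.68 CPM at day 0, reached 564 and 611 CPM at day 2. It rose by 7.91 ± 0.17, fell by 5.74 ± 0.15 to 11 and 11.1 CPM at day 6 and fell by 4.79 ± 0.26 to day 10. TBX6 rose by 4.49 ± 0.46 to 11.9 and 10.8 CPM at day 2 and fell by 4.04 ± 0.46 to day 6. These 3 streak and paraxial genes shared a peak at day 2 with no overlap between day 2 and its neighbours.

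TBX3 and TBX20 were already moving at day 2. TBX3 stood at 1.91 and 2.32 CPM at day 0, at 18.6 and 17.9 CPM at day 2 and at 77.9 and 128 CPM at day 6, and fell by 1.48 ± 0.21 to 32.8 and 40.6 CPM at day 10. TBX20 stood at 0.106 and 0.104 CPM at day 0, at 4.58 and 3.46 CPM at day 2, at 266 and 196 CPM at day 6 and at 645 and 728 CPM at day 10. TBX3 thus peaked at day 6 and TBX20 rose at each step, by 5.26 ± 0.38, 5.8 ± 0.2 and 1.59 ± 0.16.

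TBX2 and TBX5 were late. TBX2 held 0 and 1 count in the WT libraries of day 2, then stood at 50.9 and 52.7 CPM at day 6 and at 228 and 553 CPM at day 10, a rise of 2.93 ± 0.34 over the last step. The day 10 libraries are spread by more than 2-fold but both lie above day 6. TBX5 began at 0.822 and 1.15 CPM, was lower at day 2 (0.194 and 0.37 CPM, -1.89 ± 0.4, adjusted p = 0.00355), and reached 14.5 and 18.8 CPM at day 6 and 92 and 98.2 CPM at day 10. Without replicate 1 of WT day 2 the early fall of TBX5 was not called (adjusted p = 0.0772), while its rises of 5.99 ± 0.3 and 2.53 ± 0.18 held without any 1 library.

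TBX1 was the only member with its highest WT level at day 0, at 6.36 and 5.62 CPM, and it stood at 4.9 and 4.01 CPM at day 2, 1.95 and 1.73 CPM at day 6 and 0.985 and 1.42 CPM at day 10. The fall from day 2 to day 6 was 1.3 ± 0.28. TBX18 held between 2 and 18 counts in WT libraries up to day 6 and reached 29 and 10 CPM at day 10, a rise of 5.31 ± 0.53. TBX4 had no count in WT at days 0 and 2 and stood at 0.738 and 1.01 CPM at day 6, at least 6.2-fold above the limit that 3 counts per library set at day 2. That call needed replicate 1 of WT day 2 (adjusted p = 0.0767 without it), and the 2 day 10 libraries of TBX4 differed, at 0.207 and 1.63 CPM.

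**Figure D1:**
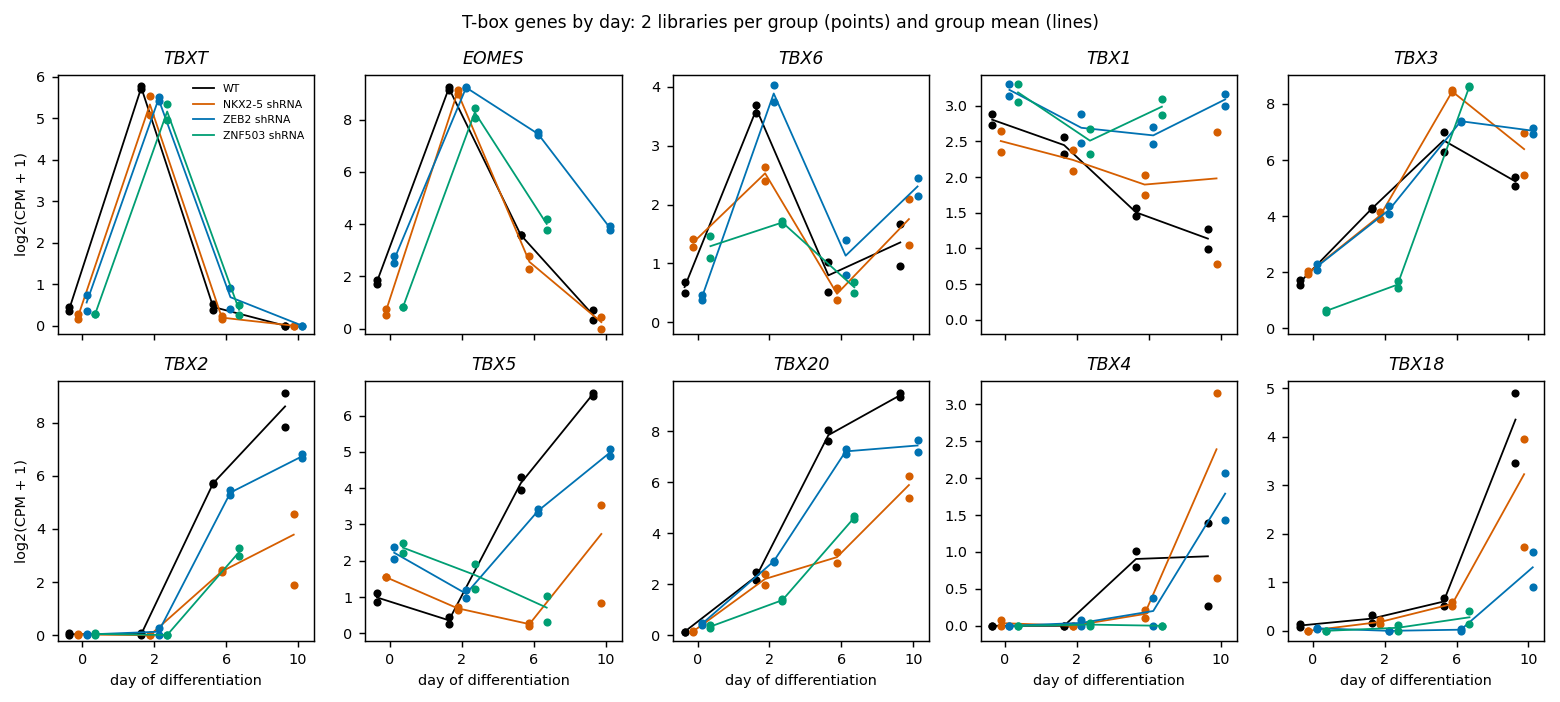
Level of each T-box gene as log2(CPM + 1) against the day of differentiation, with 2 libraries per group as points and lines through the group means, for WT (black), NKX2-5 shRNA (orange), ZEB2 shRNA (blue) and ZNF503 shRNA (green). TBXT, EOMES and TBX6 peak at day 2 in WT, EOMES stays at 182 and 167 CPM in ZEB2 shRNA cells at day 6, and TBX2, TBX5 and TBX20 rise from day 2 in WT.

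Divided by exonic length (CPM per kb), levels can be set side by side between members. In WT at day 2, EOMES led with 180 ± 9.97 CPM per kb (SD, n = 2), followed by TBXT with 23.5 ± 0.588. TBX20 (2.2 ± 0.436) and TBX1 (2.18 ± 0.308) did not differ beyond their spread there. At day 6, TBX20 led with 127 ± 27.2 CPM per kb, and the mean of TBX2 (15.1 ± 0.374) lay within the wide spread of TBX3 (21.8 ± 7.5). At day 10 the order was TBX20 (376 ± 32.4), TBX2 (114 ± 66.8), TBX5 (25.5 ± 1.18), TBX3 (7.75 ± 1.17) and TBX18 (3.04 ± 2.09). Per length, TBX20 was thus the most abundant of the members from day 6 on in WT.

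The knockdown lines were compared with WT of the same day, and because every line is set against the same 2 WT libraries of its day, the comparisons are not independent. At day 0, 7 members passed the filter on low counts (TBX2, TBX4 and TBX18 did not), and of the 7 the NKX2-5 line differed in 3, the ZEB2 line in 2 and the ZNF503 line in 4. The share of all genes tested that differed was 15.9%, 3.93% and 7.53%. At day 2 the same 7 members passed, and 1, 0 and 6 differed, beside 26.7%, 0.49% and 26.9% of all genes. For ZEB2 shRNA cells at day 2, where edgeR called 0, DESeq2 also called 0, and 2 members had an unadjusted p under 0.05, TBX5 (adjusted p = 0.153 in edgeR's quasi-likelihood test) and TBX20 (0.397).

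At day 6 all 10 members passed, and 6 differed in the NKX2-5 line, 5 in the ZEB2 line and 6 in the ZNF503 line, beside 49.1%, 11% and 55.7% of all genes. Of these members 1, 3 and 2 were higher, beside 24.4%, 5.67% and 27.2% of all genes, and 5, 2 and 4 were lower, beside 24.7%, 5.33% and 28.5%. The median member stood at -1.22, 0.05 and -0.84 (log2) and the median gene at 0, 0.01 and -0.03. At a change of 8-fold and 1% FDR, 3, 1 and 3 members were called, beside 4.71%, 0.462% and 3.91% of all genes. At day 10, 9 members passed (TBXT did not), and 3 differed in the NKX2-5 line, all lower, beside 43.9% of all genes, 20.6% lower. In the ZEB2 line 4 differed, 2 in each direction, beside 18.2% of all genes, 10.6% higher and 7.67% lower.

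**Figure D2:**
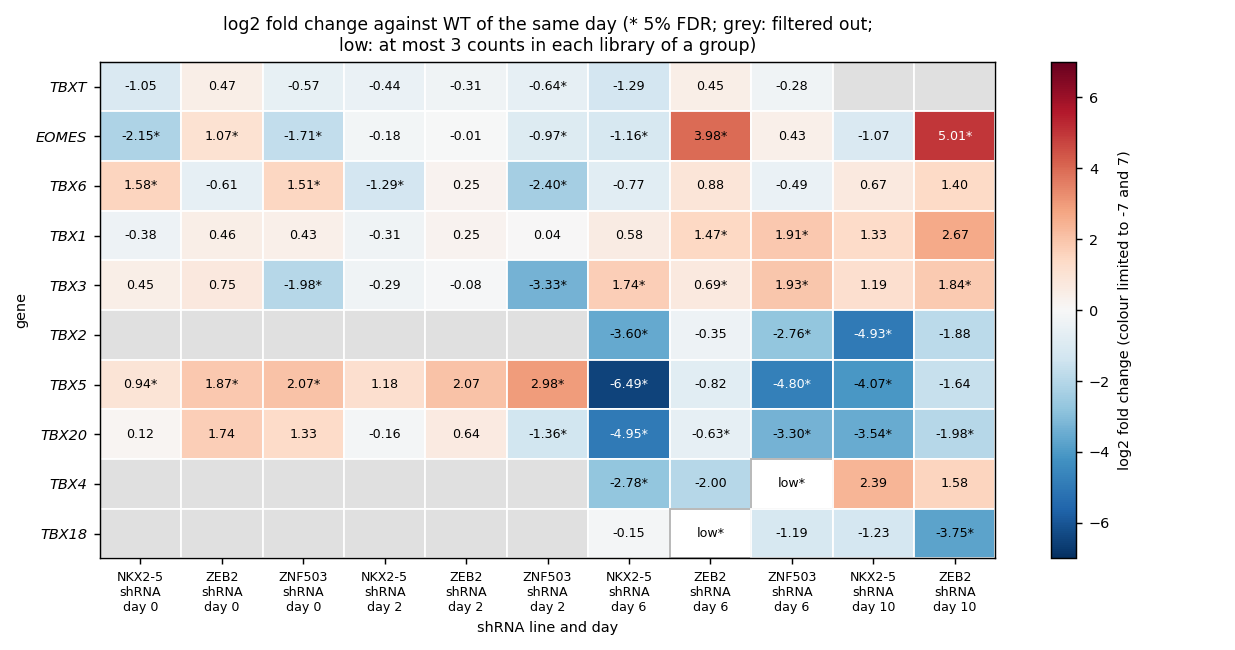
Fitted log2 fold change of each T-box gene (rows) in each shRNA line and day (columns) against WT of that day, with red for higher and blue for lower, an asterisk for 5% FDR, grey for genes filtered out and "low" where a group holds at most 3 counts in each library. In NKX2-5 shRNA cells TBX5, TBX2 and TBX20 lie at -6.49, -3.6 and -4.95 at day 6, and in ZEB2 shRNA cells EOMES lies at 3.98 and 5.01 at days 6 and 10.

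TBXT and EOMES rose from day 0 to day 2 in every line, TBXT by 7.98 ± 0.41, 6.51 ± 0.35 and 7.31 ± 0.29 and EOMES by 9.91 ± 0.53, 6.77 ± 0.14 and 8.69 ± 0.22 in NKX2-5, ZEB2 and ZNF503 shRNA cells. At day 2 both were below WT in the ZNF503 line. All 3 pluripotency markers were higher in that line at day 2 (13.1% of all genes were), with sums of 862 and 823 CPM against 539 and 529 CPM in WT, and their part in the day 2 values of this line was not tested. TBXT at day 2 was at 51.5 and 53.4 CPM in WT, 33 and 45.6 CPM in NKX2-5 shRNA, 41.7 and 44.5 CPM in ZEB2 shRNA and 30 and 39.5 CPM in ZNF503 shRNA cells. Every knockdown library lay below both WT libraries. The difference passed the test only in the ZNF503 line (-0.64 ± 0.16, adjusted p = 0.00752), and there not without ZNF503 shRNA replicate 1 (adjusted p = 0.133). In NKX2-5 shRNA cells it was -0.44 (adjusted p = 0.051). The lines did not differ from each other in TBXT at day 2 past the test, with adjusted p from 0.133 to 0.586.

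EOMES at day 2 was at 269 and 347 CPM in ZNF503 shRNA cells, under 564 and 611 CPM in WT, without overlap, and was lower by 0.97 ± 0.11 on the log2 scale (adjusted p = 1.34e-05). In NKX2-5 shRNA (503 and 553 CPM) and ZEB2 shRNA cells (588 and 604 CPM) the differences were -0.18 (adjusted p = 0.247) and -0.01. The ZNF503 line was also below both other lines in a direct test, with EOMES higher by 0.8 ± 0.11 in NKX2-5 shRNA and by 0.96 ± 0.11 in ZEB2 shRNA cells.

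After day 2 EOMES set the ZEB2 line apart. At day 6 it stood at 182 and 167 CPM in ZEB2 shRNA cells, at 11 and 11.1 CPM in WT, at 3.83 and 5.95 CPM in NKX2-5 shRNA and at 17.4 and 12.8 CPM in ZNF503 shRNA cells. The ZEB2 shRNA libraries lay above all 6 others. The difference from WT was 3.98 ± 0.2 (adjusted p = 5.1e-07) and held without any 1 library. From day 2 to day 6, EOMES fell by 1.79 ± 0.11 in ZEB2 shRNA cells, beside 5.74 ± 0.15 in WT, 6.75 ± 0.45 in NKX2-5 shRNA and 4.39 ± 0.17 in ZNF503 shRNA cells, and the difference between these steps was not tested as such. At day 10 it was at 14.2 and 12.8 CPM in ZEB2 shRNA cells and at 0.259 and 0.654 CPM in WT, again without overlap (5.01 ± 0.88, adjusted p = 0.0105). With any 1 of these 4 libraries left out, the day 10 call was lost (adjusted p from 0.0672 to 0.11). In NKX2-5 shRNA cells EOMES was lower than in WT at day 6 (-1.16 ± 0.2, adjusted p = 0.000422). In ZNF503 shRNA cells it was at 0.43 (adjusted p = 0.0723).

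The same gene already differed between the undifferentiated lines. At day 0 EOMES was at 2.31 and 2.68 CPM in WT, 0.437 and 0.678 CPM in NKX2-5 shRNA, 5.82 and 4.78 CPM in ZEB2 shRNA and 0.761 and 0.766 CPM in ZNF503 shRNA cells. No line overlapped with WT, and the log2 differences were -2.15 ± 0.29 (adjusted p = 0.000898), 1.07 ± 0.24 (0.0317) and -1.71 ± 0.28 (0.00549). The NKX2-5 call held without any 1 library. The ZEB2 call was lost without any 1 of its 4 libraries (adjusted p up to 0.241) and the ZNF503 call without WT replicate 2 or either ZNF503 shRNA library (up to 0.0945).

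TBX6 at day 2 was at 11.9 and 10.8 CPM in WT, 4.29 and 5.26 CPM in NKX2-5 shRNA, 12.4 and 15.3 CPM in ZEB2 shRNA and 2.18 and 2.3 CPM in ZNF503 shRNA cells. Both the NKX2-5 and the ZNF503 line lay below WT, at -1.29 ± 0.19 (adjusted p = 0.00031) and -2.4 ± 0.2 (8.59e-07), and both calls held without any 1 library. The 2 lines differed from each other too, with TBX6 higher by 1.11 ± 0.21 in NKX2-5 shRNA cells. In ZNF503 shRNA cells, where TBX6 was at 1.14 and 1.76 CPM at day 0, the step to day 2 did not pass the test (0.63 ± 0.33, adjusted p = 0.16). At day 0 TBX6 was higher than in WT in the NKX2-5 (1.58 ± 0.38) and ZNF503 (1.51 ± 0.37) lines, from WT levels of 0.61 and 0.417 CPM, and these calls were lost when 1 library was left out: for NKX2-5 shRNA its replicate 2 or either WT library (adjusted p up to 0.139), for ZNF503 shRNA any of the 4 (0.0725 to 0.259).

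TBX1 first differed from WT past the test at day 6. At day 0, without passing the test, it was at 8.86 and 7.82 CPM in ZEB2 shRNA and 8.93 and 7.29 CPM in ZNF503 shRNA cells. WT was then at 6.36 and 5.62 CPM and the NKX2-5 line, below it, at 4.11 and 5.25 CPM. At day 6 TBX1 was at 1.95 and 1.73 CPM in WT, 2.36 and 3.08 CPM in NKX2-5 shRNA, 5.48 and 4.52 CPM in ZEB2 shRNA and 7.56 and 6.29 CPM in ZNF503 shRNA cells, with every knockdown library above WT. The difference passed the test in the ZEB2 (1.47 ± 0.27, adjusted p = 0.00365) and ZNF503 (1.91 ± 0.27, adjusted p = 9.31e-05) lines. The ZEB2 call was lost without ZEB2 shRNA replicate 1 (adjusted p = 0.0554). At day 10 TBX1 was at 8 and 7.02 CPM in ZEB2 shRNA cells and at 0.985 and 1.42 CPM in WT (2.67, adjusted p = 0.0642). TBX1 did not fall from day 2 to day 6 past the test in any knockdown line, with -0.46 (adjusted p = 0.618), -0.12 (0.689) and 0.51 (0.0641) in NKX2-5, ZEB2 and ZNF503 shRNA cells.

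TBX3, a repressor, went in opposite directions in the ZNF503 line at days 2 and 6. At day 2 it was at 1.69 and 2.21 CPM in ZNF503 shRNA cells and at 18.6 and 17.9 CPM in WT (-3.33 ± 0.2, adjusted p = 3.39e-08). The NKX2-5 (13.9 and 16.7 CPM) and ZEB2 (15.7 and 19.5 CPM) lines were at -0.29 and -0.08 and differed from the ZNF503 line by 3.04 ± 0.2 and 3.24 ± 0.2. At day 0 it was lower there as well, at 0.493 and 0.574 CPM against 1.91 and 2.32 CPM (-1.98 ± 0.27, adjusted p = 0.00219), a call lost without ZNF503 shRNA replicate 2 (0.0511).

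By day 6 TBX3 was above WT in all 3 lines. It stood at 77.9 and 128 CPM in WT, 356 and 339 CPM in NKX2-5 shRNA, 164 and 167 CPM in ZEB2 shRNA and 392 and 399 CPM in ZNF503 shRNA cells, without overlap between WT and any line. The differences were 1.74 ± 0.18 (adjusted p = 5.74e-06), 0.69 ± 0.17 (0.0242) and 1.93 ± 0.18 (3.09e-06). The ZEB2 call was lost without WT replicate 1 or either ZEB2 shRNA library (adjusted p up to 0.142), and the other calls held. From day 2 to day 6 TBX3 rose by 7.72 ± 0.16 in the ZNF503 line, beside 2.49 ± 0.22 in WT. At day 10 it was at 122 and 140 CPM in ZEB2 shRNA and at 32.8 and 40.6 CPM in WT cells (1.84 ± 0.45, adjusted p = 0.0314, and 0.113 to 0.191 without any 1 of the 4 libraries). In NKX2-5 shRNA cells at day 10 the 2 libraries were at 123 and 43 CPM (1.19, adjusted p = 0.0629).

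TBX2, the other repressor, was below WT at day 6 in the NKX2-5 and ZNF503 lines. At day 6 it was at 50.9 and 52.7 CPM in WT, 4.42 and 4.16 CPM in NKX2-5 shRNA, 43.1 and 37.6 CPM in ZEB2 shRNA and 8.69 and 6.82 CPM in ZNF503 shRNA cells. The NKX2-5 and ZNF503 lines stood at -3.6 ± 0.17 (adjusted p = 8.66e-09) and -2.76 ± 0.17 (9.33e-08), and the ZEB2 line was at -0.35 (0.169). At day 10 TBX2 was at 2.74 and 22.8 CPM in NKX2-5 shRNA cells, against 228 and 553 CPM in WT (-4.93 ± 0.92, adjusted p = 0.00523). ZEB2 shRNA cells, with 111 and 101 CPM, lay below both WT libraries without passing the test (-1.88, adjusted p = 0.145). TBX2 still rose from day 2 to day 6 in NKX2-5 shRNA cells, where no count was found at day 2 and the day 6 mean was at least 48.6-fold above the limit of 3 counts per library.

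TBX5, the Holt-Oram syndrome gene, was the member with the largest fitted difference from WT among those with more than 3 counts in a library of each group. At day 6 it was at 14.5 and 18.8 CPM in WT, 0.221 and 0.16 CPM in NKX2-5 shRNA, 9.79 and 8.96 CPM in ZEB2 shRNA and 1.02 and 0.244 CPM in ZNF503 shRNA cells. All knockdown libraries lay below WT, and the differences were -6.49 ± 0.45 (adjusted p = 2.3e-07), -0.82 (0.114) and -4.8 ± 0.41 (1.57e-06). The NKX2-5 and ZNF503 lines did not differ past the test (-1.69 ± 0.61, adjusted p = 0.0829). At day 10 TBX5 was at 92 and 98.2 CPM in WT, at 28.4 and 32.8 CPM in ZEB2 shRNA (-1.64, adjusted p = 0.194) and at 0.769 and 10.6 CPM in NKX2-5 shRNA cells (-4.07 ± 0.9, adjusted p = 0.00977). That last call was lost without WT replicate 3 (0.0528) or 4 (0.0539).

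Before the cardiac stage TBX5 was on the other side of WT. At day 0 it was at 0.822 and 1.15 CPM in WT, 1.95 and 1.91 CPM in NKX2-5 shRNA, 3.15 and 4.17 CPM in ZEB2 shRNA and 3.67 and 4.61 CPM in ZNF503 shRNA cells. All knockdown libraries lay above WT, by 0.94 ± 0.28 (adjusted p = 0.04), 1.87 ± 0.27 (0.00287) and 2.07 ± 0.27 (0.0016). The NKX2-5 call was lost without any 1 library (0.069 to 0.263), the ZEB2 call without WT replicate 1 (0.0501), and the ZNF503 call held. At day 2 the ZNF503 line was still higher, at 2.74 and 1.35 CPM against 0.194 and 0.37 CPM (2.98 ± 0.51, adjusted p = 0.00055), and the ZEB2 line was at 2.07 (0.153). In the ZNF503 line TBX5 then fell by 1.87 ± 0.5 from day 2 to day 6 while it rose by 5.99 ± 0.3 in WT, and the fall was lost without ZNF503 shRNA replicate 1 of day 2 or replicate 2 of day 6 (adjusted p up to 0.105).

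These TBX5 values share their locus with TBX5-AS1, a long non-coding RNA on the opposite strand. Its RefSeq promoter window shares 282 of its 300 bases (94%) with a TBX5 window. The genes themselves overlap only from base 114845936 to base 114846247 of chromosome 12. Their exonic lengths are 3733 bases (TBX5) and 3699 bases (TBX5-AS1), so the overlap is a small part of each. The library kit keeps the strand, but it is not given in the sources used here whether counting used it, so reads from the overlap cannot be assigned between them. TBX5-AS1 was at 0.53 and 1.02 CPM in WT at day 0, at 2.32 and 3.32 CPM in ZEB2 shRNA (1.83 ± 0.38, adjusted p = 0.021) and at 2.8 and 2.22 CPM in ZNF503 shRNA cells (1.68 ± 0.39, adjusted p = 0.0246). It was higher in the ZNF503 line at day 2 (3.64 ± 0.59, adjusted p = 0.000348), and at day 6 it had no count in NKX2-5 shRNA cells and 2 and 3 counts in ZNF503 shRNA cells, with 0.651 and 1.01 CPM in WT. TBX5-AS1 and TBX5 were thus on the same side of WT at each of these days.

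TBX20, the other cardiac activator, was below WT in all 3 lines at day 6. At day 6 it was at 266 and 196 CPM in WT, 6.08 and 8.73 CPM in NKX2-5 shRNA, 158 and 139 CPM in ZEB2 shRNA and 22.7 and 24.4 CPM in ZNF503 shRNA cells, with no overlap between WT and any line. The differences were -4.95 ± 0.2 (adjusted p = 2.86e-09), -0.63 ± 0.17 (0.0289) and -3.3 ± 0.18 (5.27e-08). The ZEB2 call was lost without WT replicate 1 or either ZEB2 shRNA library (up to 0.274). At day 10 TBX20 was at 645 and 728 CPM in WT, 41.5 and 75.9 CPM in NKX2-5 shRNA (-3.54 ± 0.34, adjusted p = 0.000448) and 200 and 147 CPM in ZEB2 shRNA cells (-1.98 ± 0.32, adjusted p = 0.00788, and 0.0502 to 0.0923 without any 1 of the 4 libraries).

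TBX20 rose from day 2 to day 6 in every line. The step was 5.8 ± 0.2 in WT, 4.5 ± 0.17 in ZEB2 shRNA, 3.83 ± 0.22 in ZNF503 shRNA and 1 ± 0.34 in NKX2-5 shRNA cells, the last with an adjusted p of 0.0445 that was 0.051 to 0.234 without any 1 library. From day 6 to day 10 the step was 2.92 ± 0.35 in the NKX2-5 line and 0.21 (adjusted p = 0.213) in the ZEB2 line. At day 2, before the cardiac stage, TBX20 was at 1.69 and 1.54 CPM in ZNF503 shRNA cells and at 4.58 and 3.46 CPM in WT (-1.36 ± 0.26, adjusted p = 0.00114).

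TBX18, the epicardial member, was low until day 10. There it was at 29 and 10 CPM in WT, 2.31 and 14.5 CPM in NKX2-5 shRNA and 0.869 and 2.1 CPM in ZEB2 shRNA cells, so the ZEB2 line lay below WT and the NKX2-5 line overlapped with it. ZEB2 shRNA cells differed by -3.75 ± 0.95 (adjusted p = 0.0348), lost without any 1 of the 4 libraries (0.0856 to 0.212). At day 6 the ZEB2 shRNA libraries held 2 and 0 counts and the WT libraries 14 and 18 counts (adjusted p = 0.0132), and that call was lost without WT replicate 1 or either ZEB2 shRNA library (up to 0.149).

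TBX4 had the lowest peak of the members per length, with a highest group mean of 1.25 CPM per kb. At day 6 it was at 0.738 and 1.01 CPM in WT and at 0.0737 and 0.16 CPM in NKX2-5 shRNA cells (-2.78 ± 0.76, adjusted p = 0.0106, lost without NKX2-5 shRNA replicate 1 or WT replicate 2, up to 0.0771). ZNF503 shRNA cells had no count, and WT was at least 6.35-fold higher (adjusted p = 0.00181). At day 10 the NKX2-5 shRNA libraries differed from each other, at 7.93 and 0.571 CPM. The same pair of libraries differed in TBX1 (0.721 and 5.19 CPM), TBX2, TBX3, TBX5 and TBX18, and less in TBX20 (41.5 and 75.9 CPM). Its cardiomyocyte marker sums were 54.9 and 353 CPM, with the higher TBX1, TBX2, TBX5, TBX18 and TBX20 in the library with the higher sum.

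Direct tests between the lines showed where their T-box profiles differed. At day 2, 5 of the 7 members tested differed between the NKX2-5 and ZNF503 lines (39.5% of all genes), 4 between the ZEB2 and ZNF503 lines (29.3%) and 2, TBX6 and TBX20, between the NKX2-5 and ZEB2 lines (23.2%). TBX20 in the last pair was lost without NKX2-5 shRNA replicate 2 or either ZEB2 shRNA library (adjusted p up to 0.128). At day 6, 8 of 10 members differed between the NKX2-5 and ZEB2 lines (44.4% of all genes), 7 between the ZEB2 and ZNF503 lines (49.2%) and 4 between the NKX2-5 and ZNF503 lines (14.7%). The last 4 were EOMES, TBX1, TBX2 and TBX20, each lower in the NKX2-5 line (8.81% of all genes), at -1.59 ± 0.2, -1.33 ± 0.26, -0.85 ± 0.17 and -1.65 ± 0.19. Of these, TBX1 was lost without NKX2-5 shRNA replicate 1 (adjusted p = 0.059) and TBX2 without NKX2-5 shRNA replicate 2 or ZNF503 shRNA replicate 1 (up to 0.0743). At day 10, 3 of 9 members differed between the NKX2-5 and ZEB2 lines (21.3% of all genes), with EOMES (-6.09 ± 0.91), TBX2 (-3.05 ± 0.85) and TBX20 (-1.56 ± 0.31) lower in the NKX2-5 line (10.8% of all genes). That count was 6 or 5 without either NKX2-5 shRNA library, 0 without ZEB2 shRNA replicate 3 and 1 without replicate 4.

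Cell type markers moved with these values, and their part in them was not tested. The cardiomyocyte sum at day 6 was 36.6 and 45.9 CPM in NKX2-5 shRNA, 208 and 151 CPM in ZNF503 shRNA and 5325 and 4952 CPM in ZEB2 shRNA cells, against 11027 and 8723 CPM in WT. TBX2, TBX5 and TBX20 had the same order of lines by their means, WT, ZEB2, ZNF503 and NKX2-5, at that day. The sum of 5 definitive endoderm markers at day 6 was 854 and 907 CPM in NKX2-5 shRNA, 720 and 675 CPM in ZNF503 shRNA, 81.9 and 113 CPM in ZEB2 shRNA and 122 and 240 CPM in WT cells. TBX3 was highest in the 2 lines with the high endoderm sum, and EOMES, itself an endoderm factor, was highest in the line with the lowest sum. The endoderm markers split in that line, ZEB2 shRNA: of 5, 1 was higher and 1 lower than in WT (median 0.49), beside 5.67% and 5.33% of all genes. At day 10 the endoderm sum was 30847 and 20035 CPM in NKX2-5 shRNA, 4901 and 5998 CPM in ZEB2 shRNA and 2966 and 1222 CPM in WT cells, with no marker at 0. The sum of 4 smooth muscle and fibroblast markers at day 10 was 4979 and 5443 CPM in ZEB2 shRNA, 2679 and 4988 CPM in NKX2-5 shRNA and 1743 and 1168 CPM in WT cells, with no marker at 0. These markers split: the collagens COL1A1 and COL3A1 were higher than in WT in both lines. TAGLN did not differ, and mean ACTA2 was 177 CPM in NKX2-5 shRNA (lower past the test), 226 CPM in ZEB2 shRNA (not past it) and 458 CPM in WT cells. Of 6 endothelium and blood markers 5 were higher and 1 lower than in WT in the NKX2-5 line at day 10 (median 5.12), beside 23.3% and 20.6% of all genes. Their sum was 911 and 1108 CPM there, 343 and 407 CPM in ZEB2 shRNA cells, with 1 marker at 0, and 453 and 350 CPM in WT cells. In the ZEB2 line 2 of the 6, CDH5 and PECAM1, were higher and 1, GATA1, was lower (median -1.07), beside 10.6% and 7.67% of all genes.

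**Figure D3:**
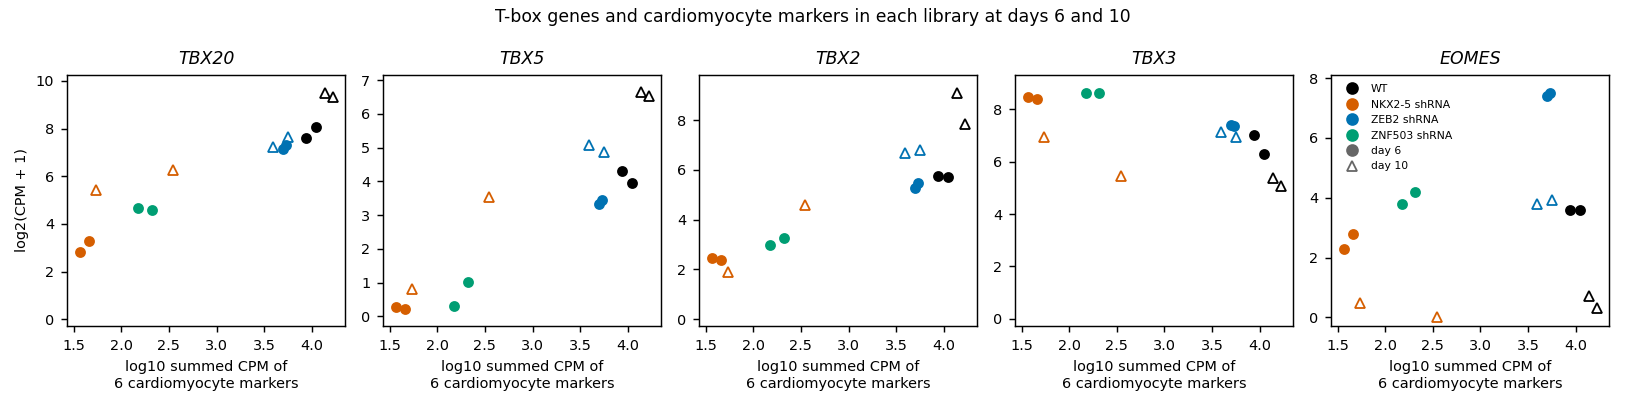
Level of 5 T-box genes, as log2(CPM + 1), against the summed CPM of 6 cardiomyocyte markers (log10) in each library of day 6 (filled circles) and day 10 (open triangles), coloured by line. TBX20, TBX5 and TBX2 are highest where the marker sum is highest, at 13660 and 16603 CPM in WT at day 10, while TBX3 is higher in both NKX2-5 shRNA libraries of day 6, at sums of 36.6 and 45.9 CPM, than in WT.

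The wider pathways were read through lists of genes that act with the members, for which the median over all genes tested lay between -0.03 and 0.03 in each comparison named. Of 11 mesendoderm and paraxial genes linked to TBXT, EOMES and TBX6, 10 were tested at day 2. In ZNF503 shRNA cells 9 were lower (median -1.94), where 13.8% of all genes were, beside NANOG (1.18 ± 0.1), SOX2 (1.04 ± 0.12) and POU5F1 (0.5 ± 0.08), the pluripotency markers, which were higher. Those lower included LHX1, a streak and node factor (24.1 and 33.5 CPM against 278 and 313 CPM, -3.42 ± 0.15), SOX17, an endoderm factor (-4.01 ± 0.18), and MESP1, an early factor of cardiac mesoderm (0.534 and 0.542 CPM against 6.03 and 6.36 CPM, -3.57 ± 0.3). In NKX2-5 shRNA cells 5 were lower and 2 higher (median -0.57), beside 13.6% and 13% of all genes. MESP1 was at 0.228 and 0.249 CPM there (-4.73 ± 0.34), while GSC, an organiser factor, was higher by 0.75 ± 0.11. In ZEB2 shRNA cells the adjusted p of the 10 ran from 0.0582 (FOXA2) to 0.98 (SOX17), with a median of -0.1. ZNF503 shRNA cells, with the lowest TBXT, EOMES and TBX6 means, thus also had the most genes of this list below WT, and the NKX2-5 line had TBX6 as its only lower member.

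Genes of the TBX1 pathway were mostly below WT at day 6 in the NKX2-5 and ZNF503 lines, where TBX1 was not. Of 8 pharyngeal and second heart field genes, 7 were lower in NKX2-5 shRNA cells (median -3.97) and 6 in ZNF503 shRNA cells (median -2.56), beside 24.7% and 28.5% of all genes. FGF8, a growth factor, was at 0.147 and 0.481 CPM in NKX2-5 shRNA and 1.18 and 0.609 CPM in ZNF503 shRNA cells, against 30.5 and 19.7 CPM in WT. ISL1, the defining second heart field factor, was at 3.24 and 3.68 CPM and at 10.7 and 10.6 CPM, against 187 and 147 CPM. TBX1 itself was higher than in WT in the ZNF503 line. In ZEB2 shRNA cells FGF10 was lower (-1.57 ± 0.19) and EYA1, a transcriptional cofactor, higher (1.25 ± 0.3), with a list median of 0.16.

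Of 11 chamber genes linked to TBX5 and TBX20, all tested at day 6, the NKX2-5 line had 5 lower and 3 higher (median -0.2), the ZNF503 line 5 lower and 4 higher (median -1.3) and the ZEB2 line 4 lower and 1 higher (median 0.23). Of all genes 24.7%, 28.5% and 5.33% were lower and 24.4%, 27.2% and 5.67% higher in these lines, so the shares of higher genes in the NKX2-5 and ZNF503 lines were near the background. The list splits by gene: MYH6, the atrial myosin, was at 0.663 and 0.461 CPM in NKX2-5 shRNA and at 4628 and 3940 CPM in WT cells (-12.96 ± 0.32), while GJA1, a gap junction gene that is also broadly expressed outside the heart, was higher in the NKX2-5 (2.4 ± 0.24) and ZNF503 (2.23 ± 0.24) lines. HAND2, a cardiac mesoderm factor, was lower in both (-4.58 ± 0.21 and -5.85 ± 0.24), and GATA4 was higher in both (0.54 ± 0.12 and 0.82 ± 0.12). The list includes NKX2-5, the target of a knockdown. In ZEB2 shRNA cells BMP10, a trabecular growth factor (-3.77 ± 0.42), and MYH6 (-1.09 ± 0.18) were lower.

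Genes of the pacemaker and atrioventricular canal, tissues where TBX2, TBX3 and TBX18 act, were below WT in the NKX2-5 line at day 6. Of 8 genes 7 were tested. All 7 were lower in NKX2-5 shRNA cells (median -1.99) and 4 in ZNF503 shRNA cells (median -0.34), beside 24.7% and 28.5% of all genes. HCN4, the pacemaker channel, was at 1.62 and 2.18 CPM in NKX2-5 shRNA, 6.59 and 5.12 CPM in ZNF503 shRNA and 32.1 and 34.4 CPM in WT cells. In ZEB2 shRNA cells CACNA1G, a calcium channel gene (2.79 ± 0.36), and BMP4 (0.77 ± 0.11) were higher and BMP2, an inducer of TBX2 in the canal, was lower (-1.07 ± 0.12), with a median of -0.05. SHOX2, a sinus node factor, was not tested at day 6, where WT had no count.

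Some epicardial genes were above WT in the ZEB2 line, where TBX18 was below it. At day 10, 6 of 7 were tested and 2 were higher in ZEB2 shRNA cells (median 0.1), beside 10.6% of all genes. BNC1 was at 42.6 and 52.8 CPM against 7.68 and 7.3 CPM in WT (2.67 ± 0.24) and TCF21 at 9.12 and 9.72 CPM against 2.85 and 1.74 CPM (2 ± 0.55). At day 6, 3 of 5 were lower in NKX2-5 shRNA cells (median -2.61), 3 lower and 1 higher in ZNF503 shRNA cells (median -1.21) and 1 higher in ZEB2 shRNA cells (median 0.78), where 24.7% and 28.5% of all genes were lower in the NKX2-5 and ZNF503 lines and 27.2% and 5.67% higher in the ZNF503 and ZEB2 lines.

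**Figure D4:**
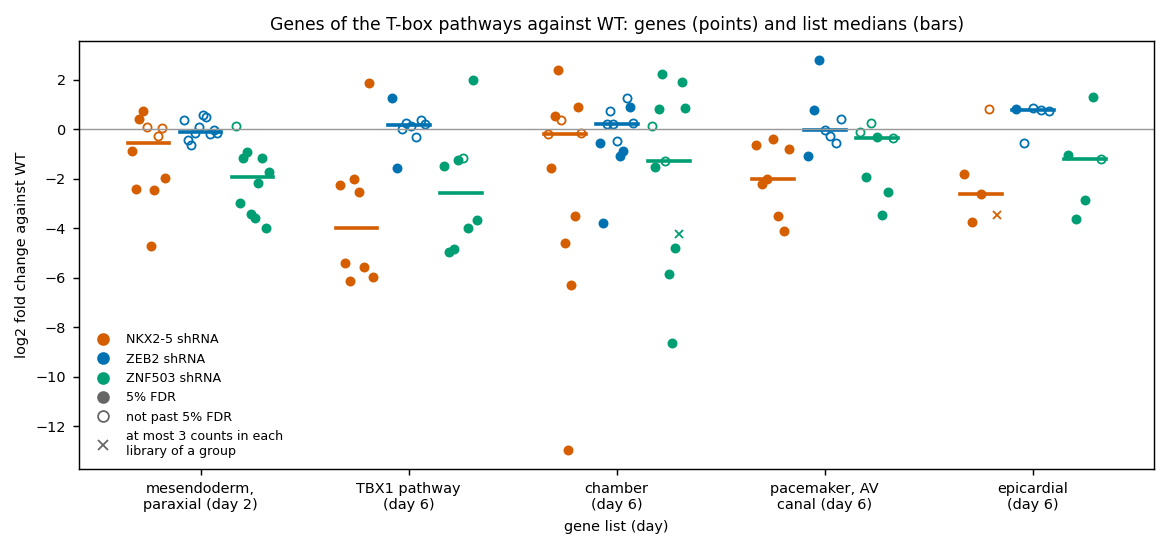
Fitted log2 fold change against WT of each tested gene (points) in 5 lists linked to the T-box genes, for NKX2-5, ZEB2 and ZNF503 shRNA cells, with list medians as bars, filled points at 5% FDR and crosses where a group holds at most 3 counts in each library. At day 2, 9 of 10 mesendoderm and paraxial genes lie below WT at 5% FDR in ZNF503 shRNA cells, and at day 6 the TBX1 pathway medians are -3.97, 0.16 and -2.56.

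RIPPLY proteins bind T-box factors and turn them into repressors. RIPPLY3, which acts on TBX1, was at 37.3 and 30.4 CPM in NKX2-5 shRNA, 32.7 and 32.6 CPM in ZNF503 shRNA and 13.3 and 12 CPM in WT cells at day 6 (1.41 ± 0.16 and 1.36 ± 0.16). At day 10 it was at 3.32 and 4.33 CPM in NKX2-5 shRNA cells, at 3.51 and 2.7 CPM in ZEB2 shRNA cells and at 0.259 and 0 CPM in WT. RIPPLY3 and TBX1 were therefore both above WT in the ZNF503 line at day 6.

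Among the 7 T-box genes that are not members, 5 were tested at day 2. TBR1, the nearest relative of EOMES, was at 0.646 and 0.271 CPM in ZNF503 shRNA cells and at 5.32 and 5.8 CPM in WT (-3.41 ± 0.28, adjusted p = 6.24e-07), so it was lower beside EOMES. TBX22 was higher in the same line (1.69 ± 0.26) and TBX15 in the ZEB2 line (1.52 ± 0.23). MGA, a T-box protein of the MAX network, ran from 201 to 340 CPM over all 30 libraries and passed no test against WT.

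Over the 15 group means of log2(CPM + 1), which share days, libraries of a day and depth, TBX2 and TBX20 were the members most alike (Pearson r = 0.96), followed by TBXT and EOMES (0.88) and TBX2 and TBX5 (0.84). TBX3 and TBX5, neighbours on chromosome 12, had r = 0.18, and TBX2 and TBX4, neighbours on chromosome 17, had r = 0.65. Among genes that reach 5 CPM, the 2 most like TBXT were SEZ6L (0.988) and MIXL1 (0.987), a streak homeobox gene. For EOMES they were SP5 (0.965), a WNT target, and UCK1 (0.953), and for TBX6 RAB26 (0.959) and ARHGAP20 (0.944). For TBX5 they were CASZ1 (0.972) and HCN4 (0.969), for TBX20 RTL5 (0.986) and MEIS2 (0.978), and for TBX2 MSRB3 and JPH2 (both 0.982), the latter a junction protein of heart muscle. TBX3 was most like TRO (0.97) and LIFR (0.967), TBX18 like ABCA8 (0.988) and MLIP (0.979), TBX4 like COL15A1 (0.989) and IGF2-AS (0.977), and TBX1, with the lowest likeness of any member, like EFHD2 (0.883) and ARHGEF26 (0.874).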

How the data were processed

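RNA-seq libraries (stranded total RNA, paired-end) were aligned by the authors to hg19 (GRCh37) with TopHat 2.0.14, Bowtie 2.2.1.0 and SAMtools 0.1.19.0, keeping the best hit of each read, and reads in RefSeq gene regions were counted with RSeQC. The values deposited are raw counts for 41627 RefSeq accessions in 34 libraries. Of the accessions, 40285 (96.8%) were matched to 23189 symbols, and per gene the row with the largest total was kept. Accessions without a symbol held 2.9% of counts. In 4 columns (WT and ZEB2 shRNA day 10, replicates 1 and 2) the file lists 42704 rows, 1077 more than the accessions, and their values had a Spearman correlation of 0.0079 to 0.0131 with replicate 3, so they were not used.

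Counts were tested with edgeR 4.0.16 (R 4.3.3) by quasi-likelihood fits with TMM scaling, filterByExpr with p-values adjusted by Benjamini-Hochberg over every gene in the fit. All groups of a day were fitted together for comparisons between lines, and all days of a line for comparisons over time, without a replicate block. Differing means 5% FDR. CPM came from 1 TMM scaling of the 30 libraries, and CPM per kb used GENCODE exonic length on GRCh37. A gene at 0 in every library of a group was bounded by 3 counts per library. Promoters are RefSeq windows of GRCh38.p14, placed on GRCh37 by exact match. P-values measure the spread between libraries that the study describes as biological replicates. Alternatives were DESeq2 1.42.0, DESeq2 size factors, no filter, the row with the smallest total, 1 fit of all libraries, a replicate block and leaving out each library. The fits were tested on simulated data. Named genes were the members, the other T-box genes, antisense neighbours and pathway lists, and, for each member that reached 1 CPM in a group mean, the 2 genes with the highest Pearson correlation over the 15 group means of log2(CPM + 1), among genes that reached 5 CPM. The members and lists were chosen with earlier results of these data known.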

Additional observations from a re-analysis of the deposited data

Results flagged for a closer look

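Direct tests between knockdown lines, which share a day's fit and its WT libraries, gave differences of at least the fold set for that day (4-fold at day 2, 8-fold at days 6 and 10) for the members that follow. At day 2, TBX3 was higher in NKX2-5 shRNA than in ZNF503 shRNA cells by 3.04 (log2, adjusted p = 4.4e-08 in edgeR's quasi-likelihood test), and in ZEB2 shRNA than in ZNF503 shRNA cells TBX3 was higher by 3.24, TBX6 by 2.65 and TBX20 by 2.01. At day 6, EOMES was higher by 3.55 and TBX5 by 3.98 in ZEB2 shRNA than in ZNF503 shRNA cells.

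Between NKX2-5 and ZEB2 shRNA cells at day 6 the log2 differences were -5.14 for EOMES, -3.25 for TBX2, -4.32 for TBX20 and -5.67 for TBX5, each lower in NKX2-5 shRNA cells. At day 10 EOMES differed between them by -6.09, from 0.384 and 0 CPM in NKX2-5 shRNA and 14.2 and 12.8 CPM in ZEB2 shRNA cells, and these lines carry different replicate numbers at that day. Without ZEB2 shRNA replicate 3 the adjusted p of this difference was 0.0537. No group held 4 libraries, so single libraries were not screened for outliers.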

How the results depend on the processing

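With DESeq2 size factors all 29 counts of T-box genes past 5% FDR stayed within 1.5 times their value. Of the 145 single-gene calls, no fold change turned its sign under any alternative fitted. Fitted with a replicate block, the count went from 2 to 1 for ZEB2 shRNA day 0 against WT, from 1 to 2 for NKX2-5 shRNA day 2 and from 4 to 8 for ZEB2 shRNA day 10, and it changed no other count by over 1.5 times. Same-numbered libraries did not deviate together (r from -0.128 to 0.12), and the block could not be fitted for 4 comparisons. With 1 fit of all 30 libraries the counts were 1 for ZEB2 shRNA day 0, 2 for ZNF503 shRNA day 0, 2 for ZEB2 shRNA day 6, 5 for NKX2-5 shRNA day 10 and 8 for ZEB2 shRNA day 10 against WT, and 3 for NKX2-5 against ZNF503 shRNA and 1 for NKX2-5 against ZEB2 shRNA at day 2 and 6 for the latter pair at day 10. Without the filter on low counts the count was 2 for NKX2-5 shRNA day 2 and 1 for ZEB2 shRNA day 2, and it was 2 for NKX2-5 shRNA day 2 by DESeq2 and with the row of smallest total.

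Leaving out 1 library at a time, with the lone library left in a group assumed to vary like the other groups, the counts against WT ran from 1 to 2 (NKX2-5), 0 to 1 (ZEB2) and 1 to 3 (ZNF503) at day 0, from 1 to 2 (NKX2-5) at day 2, from 1 to 5 (ZEB2) at day 6, and from 2 to 6 (NKX2-5) and 0 to 0 (ZEB2) on day 10. For NKX2-5 against ZEB2 shRNA the day 2 count was 1 to 2 and the day 10 count 0 to 6, and within NKX2-5 shRNA cells from 3 to 4 (day 0 to 2) and 4 to 8 (day 6 to 10). The libraries concerned are named beside the calls in the report that were lost. Of 580 single-gene refits with a library left out, 100 lost the call, and of 145 with 1 fit of all libraries, 18. Of the 20 most-alike genes named, 12 were not in the top 2 with a pseudocount of 0.1 CPM. With 2 libraries a group and day 10 totals from 9189943 counts, small differences of low genes such as TBX4 and TBX18 were not detectable.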
